A study of Camponotus floridanus with 64 samples.

Results

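Gustatory receptors (GR) and divergent ionotropic receptors (IR) of the carpenter ant Camponotus floridanus were followed in the RNA of single central brains. The members were all identifiers whose names begin with Cflo_GR or Cflo_IR, without IR25a, IR8a, IR76b and IR93a, which are co-receptors in Drosophila, and IR68a, which acts there in moist sensing. This gave 63 GR and 26 IR, together 89 of the 18130 identifiers in each table. Names are given below without the prefix Cflo_.

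Insect gustatory receptors are membrane channels opened by sugars, bitter compounds and other contact cues, and they are known best from taste neurons of mouthparts, legs and antennae. In Drosophila a fructose-sensing gustatory receptor also works inside the brain. Ionotropic receptors descend from ionotropic glutamate receptors. In Drosophila the divergent ones set which acid, amine or other ligand a neuron answers to, and they assemble with broadly used co-receptors such as IR25a, IR8a and IR76b.

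Poly(A) RNA was measured in 31 brains in 2 separately normalized tables, each library from 1 ant. All 21 scouts were minor workers isolated at an age of 25 to 30 days and fed for 45 days on 20% sugar water with 0.5% DMSO, the solvent. The DMSO arm had no further agent (5 brains, age 78 days, colonies SB2, SB6 and SB7). The TSA arm also received 50 µM TSA, a histone deacetylase inhibitor (10 brains, age 68 to 73 days, colonies SB1, SB2 and SB4). The TSA+C646 arm received 50 µM TSA with C646, an inhibitor of the histone acetyltransferases p300 and CBP, at 50 µM in 4 brains and 100 µM in 2 (6 brains, age 57 to 66 days, colonies SB1, SB4 and SB6). The labelled ages of the TSA+C646 brains, and of some TSA brains, are lower than isolation age and feeding time add up to, and those of the DMSO brains are higher. Arm, age and colony overlap, and their parts in any difference cannot be told apart. The day 1 table held 5 minor and 5 major workers of colony SB2, untreated and 1 day old. Each scout library came from 15% of the cells of its brain, after linear amplification. The labels describe no amplification for day 1, so age, amplification and table cannot be told apart between scouts and day 1.

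Values were deposited as logarithms, read here as log2. In each library a block of identifiers shares the bottom rank and could be recovered, and a receptor is called detected where its value lay above that tie. In minor 4 the end of the tie lay hidden at 0, every value of 0 was taken as undetected, and its detection is a lower bound. A level is the deposited log2 value with the constant of its library removed and with undetected receptors at 0. The number of reads per library is unknown. Gene lengths were not used, so levels are compared mainly between libraries for 1 receptor. Sums and medians over receptors, and levels of neighbouring receptors side by side, are a description that does not account for gene length. In brain samples, fewer cells expressing a receptor and less RNA per cell cannot be told apart.

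Libraries differed widely in how much they detected, from 2791 to 12328 identifiers in scouts and from 5459 to 11768 on day 1. The library TSA+C646 15 had the fewest in scouts, and TSA 10 and TSA+C646 16 the most. Those libraries and TSA 9 had the 4 constants furthest from 0. On day 1, majors 1, 2 and 3 detected 5459, 6298 and 6528 identifiers, while the other 7 libraries detected at least 10216. The main counts are given with and without these libraries. Of 4 markers of peripheral sensory neurons, Orco (the odorant co-receptor), IR25a, IR8a and IR76b, the summed level ran from 0.628 to 1.54 in the DMSO arm, from 0.391 to 3.03 under TSA and from 0.538 to 2.62 under TSA+C646. The part of such tissue in the receptor values was not tested. The summed level was 1.63 to 2.07 in minors and 1.13 to 4.47 in majors. Orco was at 0 in 10 of 21 scouts and in 9 of 10 day 1 brains, and on day 1 IR76b was detected in 1 of 5 minors and 1 of 5 majors.

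Most receptors of both families were seen somewhere in the scout brains, but each in few of them. In scouts 47 of 63 GR and 24 of 26 IR were detected in at least 1 library, or 74.6% and 92.3%, beside 85.0% of all identifiers. A GR was detected in a median of 1 of the 21 libraries and an IR in a median of 5. Taken over all pairs of receptor and library, 14.1% of GR and 26.9% of IR values were detected, beside 15.7% for the 406 odorant receptors (OR) and 48.6% for all identifiers. The GR share was thus near that of the odorant receptors, and the IR share lay above both. The 4 libraries with the constants furthest from 0 held 58 of the 186 GR and 37 of the 147 IR detections. Without them 39 GR and 23 IR were detected in scouts. No member was detected in every scout library, whereas 1652 identifiers (9.11%) were.

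Counts per brain overlapped among the arms. GR detected per library numbered 7.8 ± 3.96 (SD, n = 5) under DMSO, 9 ± 6.06 (n = 10) under TSA and 9.5 ± 5.21 (n = 6) under TSA+C646. IR numbered 5.6 ± 2.70, 8 ± 3.80 and 6.5 ± 4.28 in the same order. The highest counts came from TSA 10 with 23 GR and 13 IR and from TSA+C646 16 with 19 GR and 14 IR, which also detected the most identifiers. TSA+C646 15, which detected the fewest identifiers, had 4 GR and 2 IR, the lowest IR count, while the lowest GR count was 3, in DMSO 17, TSA 6 and TSA 7. Without TSA 9 and 10 and TSA+C646 15 and 16, the means were 6.88 and 8.5 for GR and 7.38 and 5.75 for IR in the TSA and TSA+C646 arms. IR detection was high in TSA 2 as well, with 15 IR, the only library where the IR share lay above the share of all identifiers.

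**Figure D1:**
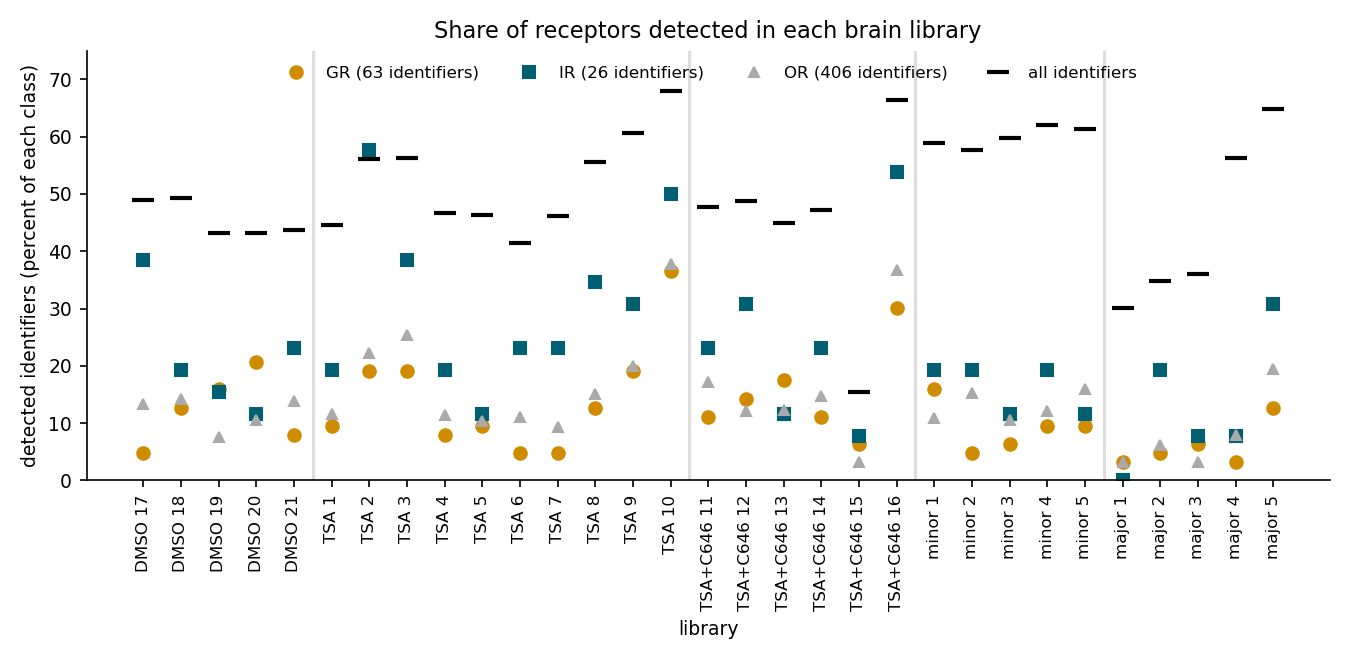
Percent of the 63 gustatory receptors (circles), 26 divergent ionotropic receptors (squares), 406 odorant receptors (triangles) and all 18130 identifiers (bars) detected in each library, in the order of the scout arms and the day 1 castes. GR shares were highest in TSA 10 and TSA+C646 16, IR shares in TSA 2, TSA+C646 16 and TSA 10, and major 1 detected no IR.

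GR48 was the most widely detected gustatory receptor and IR311 the most widely detected ionotropic one, each in 19 of 21 scouts. No ligand is given for either in the sources used here. The level of GR48 in the 5 DMSO brains was 4.53, 2.18, 3.35, 3.46 and 2.74. In TSA it ran from 0 over a median of 3.66 to 4.98, and in TSA+C646 from 0 over a median of 3.39 to 4.18. The 3 arms overlapped over most of their range. GR48 was undetected in TSA 10 and TSA+C646 15 and low in TSA 9 (0.81) and TSA+C646 16 (1.21).

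IR311 had levels of 1.48, 2.97, 1.996, 1.58 and 2.41 in the DMSO brains. In TSA its level ran from 0 over a median of 1.63 to 3.35, and in TSA+C646 from 0 over a median of 2.08 to 2.76. Its arms overlapped too. Its lowest libraries were those of GR48: undetected in TSA 9 and TSA+C646 15, at 0.02 in TSA 10 and at 0.66 in TSA+C646 16.

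The 4 libraries with the constants furthest from 0 thus held the 4 lowest values of both receptors. In the other 17 scouts both were always detected, GR48 at 2.01 to 4.98 (median 3.54) and IR311 at 1.39 to 3.35 (median 2.07). Of 3741 identifiers detected in all of those 17, 249 (6.66%) lay lower in each of the 4 than anywhere among the 17. TSA 10 and TSA+C646 16 held the most detected receptors of any scouts and yet had little or no GR48 and IR311. What sets these libraries apart was not tested.

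No difference between arms passed the test for either receptor. GR48 and IR311 were the only 2 members in the main fit. Its floor was an average of 1 or more over scouts in the values as deposited, which 4899 of 18130 identifiers (27%) passed. Fits with no floor are given further below. GR48 differed by -0.07 (SE 0.71) on the log2 scale between TSA and DMSO, by -0.43 (SE 0.78) between TSA+C646 and DMSO, and by -0.37 (SE 0.67) between TSA+C646 and TSA (limma, adjusted p = 0.998, 0.999 and 0.991). IR311 differed by -0.33 (SE 0.39), -0.08 (SE 0.43) and 0.25 (SE 0.36) in the same order (limma, adjusted p = 0.995, 0.999 and 0.991). In each of these comparisons 0 of 4899 identifiers (0%) passed an adjusted p of 0.05, and 160, 150 and 174 had an unadjusted p under 0.05. The sign of GR48 in all 3 comparisons, and of IR311 between TSA+C646 and DMSO, turned when single libraries were left out or weighted down. The differences above are of the values as deposited. With constants removed and undetected receptors at 0, GR48 differed by -0.23 (SE 0.79), -0.60 (SE 0.87) and -0.37 (SE 0.74). IR311 differed there by -0.50 (SE 0.50), -0.43 (SE 0.56) and 0.07 (SE 0.47) in the same order.

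**Figure D2:**
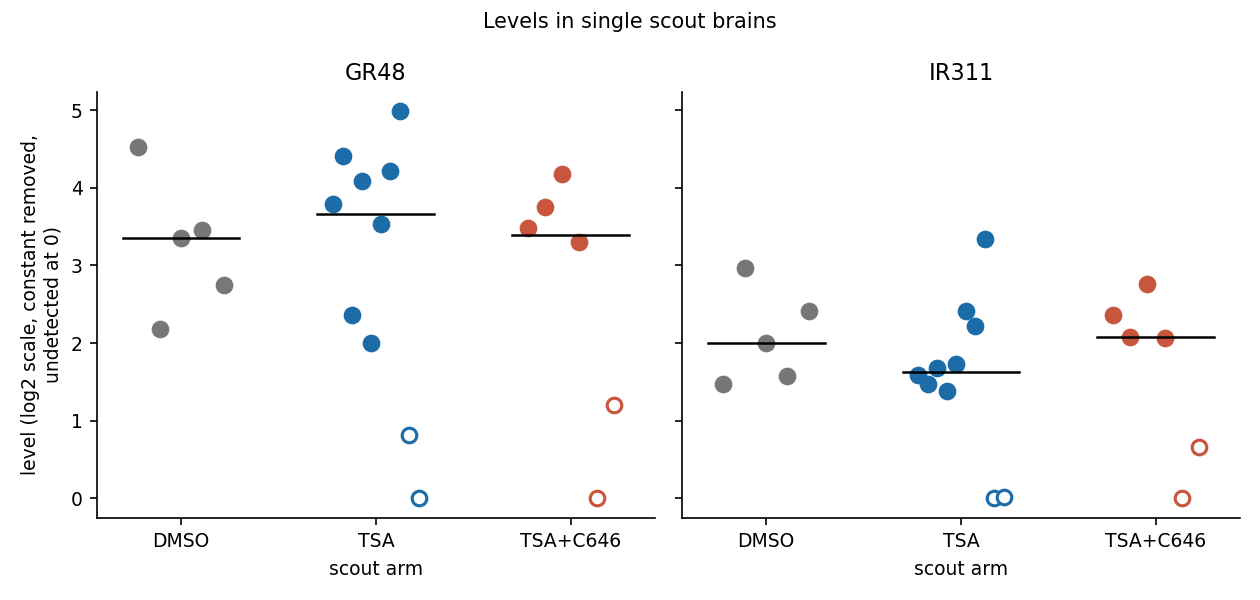
Level (log2 scale, library constant removed, undetected at 0) of GR48 and IR311 in each scout brain by arm, with the arm's median as a line. Open circles are TSA 9 and 10 and TSA+C646 15 and 16, which hold the 4 lowest values of both receptors.

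The arms were also compared within colonies. In colony SB2, GR48 ran from 2.18 to 4.53 in 3 DMSO brains and from 0 to 4.41 in 4 TSA brains. In colony SB1 it ran from 0.81 to 4.98 in 4 TSA and from 1.21 to 4.18 in 3 TSA+C646 brains. IR311 in colony SB2 ran from 1.48 to 2.97 in DMSO and from 0.02 to 1.68 in TSA, a difference of -0.70 (SE 0.43) in SB2 alone (limma, adjusted p = 0.906). In colony SB1 it ran from 0 to 3.35 in TSA and from 0.66 to 2.76 in TSA+C646. The ranges overlapped in each of these pairs. For both receptors the lowest value was that of TSA 10 among TSA brains of SB2 and of TSA 9 among those of SB1. Among TSA+C646 brains of SB1 it was that of TSA+C646 16. These are libraries set apart above, and the difference in SB2 includes TSA 10.

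GR48 and IR311 were seen both with and without Orco in the same library. In the 10 scouts with Orco at 0, GR48 was detected in 9, at 2.74 to 4.98, and IR311 in 9, at 1.39 to 3.35. In the 11 scouts with Orco detected, GR48 was found in 10, at 0.81 to 4.53, and IR311 in 10, at 0.02 to 2.97.

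Behind GR48, detection of gustatory receptors fell off quickly. GR52 was found in 15 scouts, of which 4 were DMSO, 7 TSA and 4 TSA+C646 brains. Where detected, its level ran from 0.59 to 0.81 under DMSO, from 0.14 to 2.65 under TSA, with the highest in TSA 8, and from 0.45 to 1.32 under TSA+C646. Apart from TSA 8 the brains of the 3 arms overlapped. GR52 was undetected in the 4 libraries that were low for GR48 and IR311, and in DMSO 21 and TSA 6.

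Among the ionotropic receptors, IR317.1 came next, in 13 scouts, of which 2 were DMSO, 8 TSA and 3 TSA+C646 brains. Its highest levels in these arms were 1.26, 1.30 and 1.13. IR307 was detected in 11 scouts at up to 0.70, and IR317.3 in 10 at up to 1.92 outside TSA+C646 15. Of the 7 identifiers named IR317, IR317.7 was in no scout, and at least 1 of the others was detected in 18 of 21 libraries. IR75u.2, IR75u.1, IR316 and IR317.6 were found in 7, 5, 7 and 8 scouts. In Drosophila the IR75 receptors bind small acids together with IR8a, but the files do not say how the ant genes match them.

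**Figure D3:**
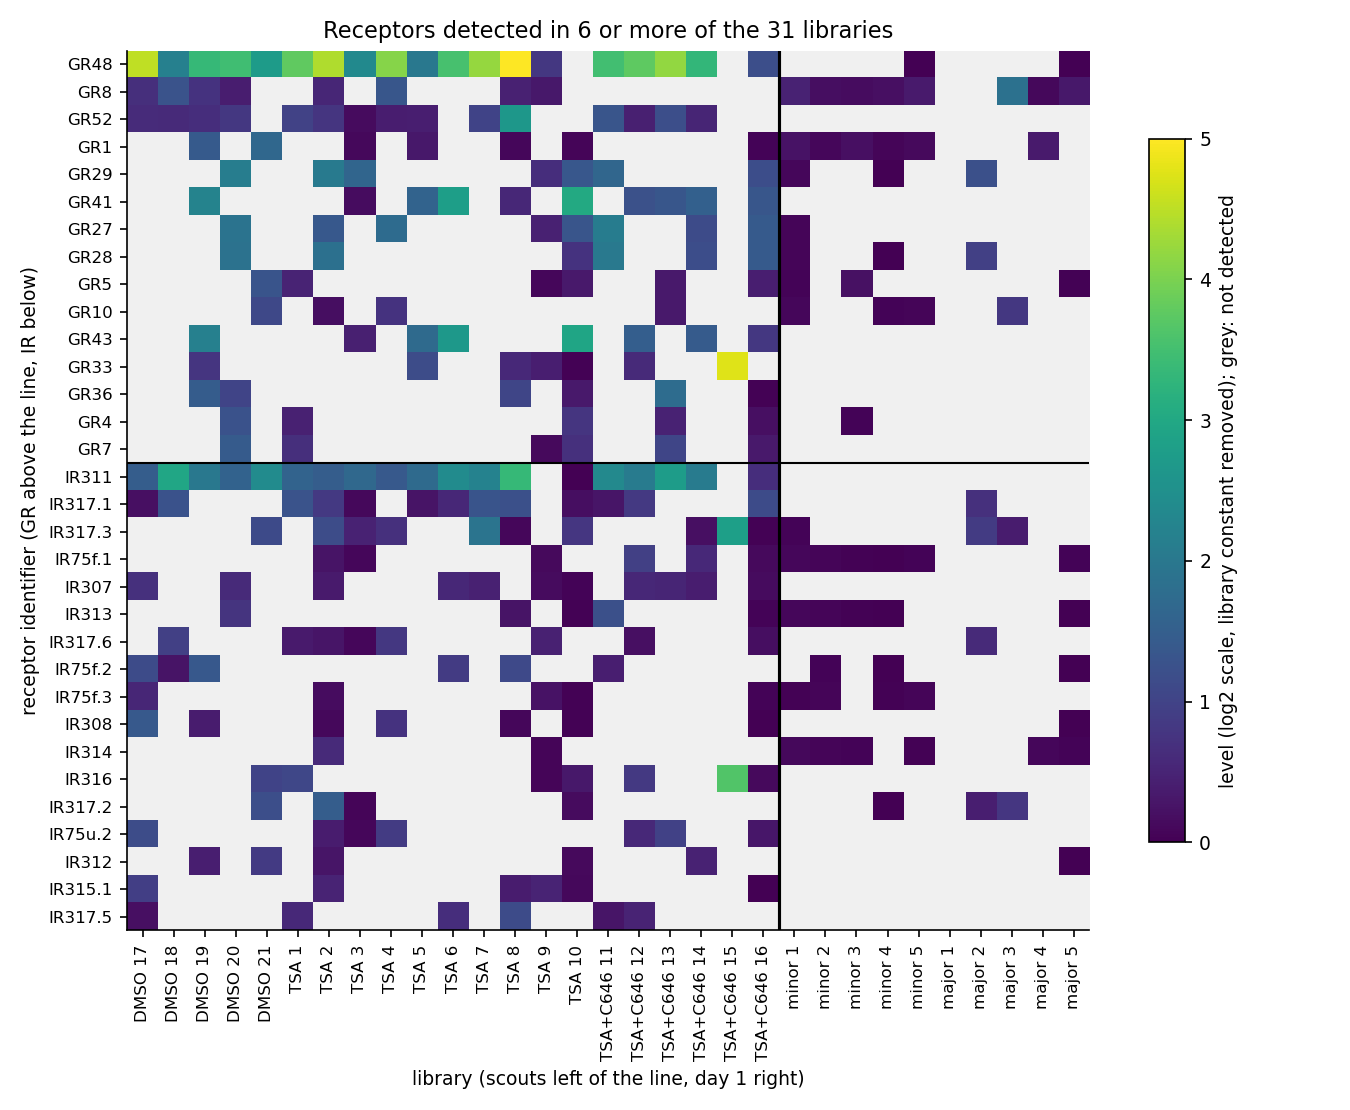
Level (log2 scale, library constant removed) of the 15 GR and 17 IR detected in 6 or more of the 31 libraries, with receptors in rows, libraries in columns and undetected values in grey. GR48 and IR311 form nearly unbroken rows in scouts and are almost or wholly undetected on day 1, where GR8, GR1, IR75f.1 and IR314 are the most often detected.

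Some gustatory receptors that are neighbours in the table were detected in the same brains. Among pairs at most 12 lines apart with each receptor in at least 3 scouts, 5 of 8 GR pairs and 0 of 9 IR pairs were found together in more than 50% of the libraries that held either. The GR pairs that were not were GR36 and GR9, GR60 and GR61, and GR15 and GR17. The 5 that were include every pair of GR27, GR28 and GR29. By the same rule on day 1, 1 of 2 GR pairs and 2 of 4 IR pairs were found together. How often other neighbours in the table were detected together was not tested. GR41 was detected in 10 scouts and GR43, 4 lines from it, in 8, and all 8 libraries with GR43 also held GR41. In those 8 the levels differed by a median of 0.13. GR41 and GR43 were at 2.24 and 2.18 in DMSO 19, at 2.80 and 2.66 in TSA 6, and at 3.05 and 2.93 in TSA 10. GR42 was detected in TSA+C646 13 and 16 alone.

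GR27, GR28 and GR29 stand on consecutive lines and were detected in 8, 6 and 7 scouts. All 6 libraries with GR28 also held GR27, and 5 libraries held all 3. The levels of the 3 receptors were 1.90, 1.88 and 2.13 in DMSO 20 and 2.10, 2.02 and 1.66 in TSA+C646 11. On day 1, GR28 and GR29 were detected in the same 3 libraries.

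Whether reads shared between similar neighbouring genes produce this was not tested, so the values of each are uncertain. By arm, at least 1 of GR41, GR42 and GR43 was seen in 1 of 5 brains fed DMSO, in 5 of 10 fed TSA and in 4 of 6 fed TSA+C646. For GR27, GR28 and GR29 the counts were 1, 5 and 3. Detected and undetected brains occurred in every arm.

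**Figure D4:**
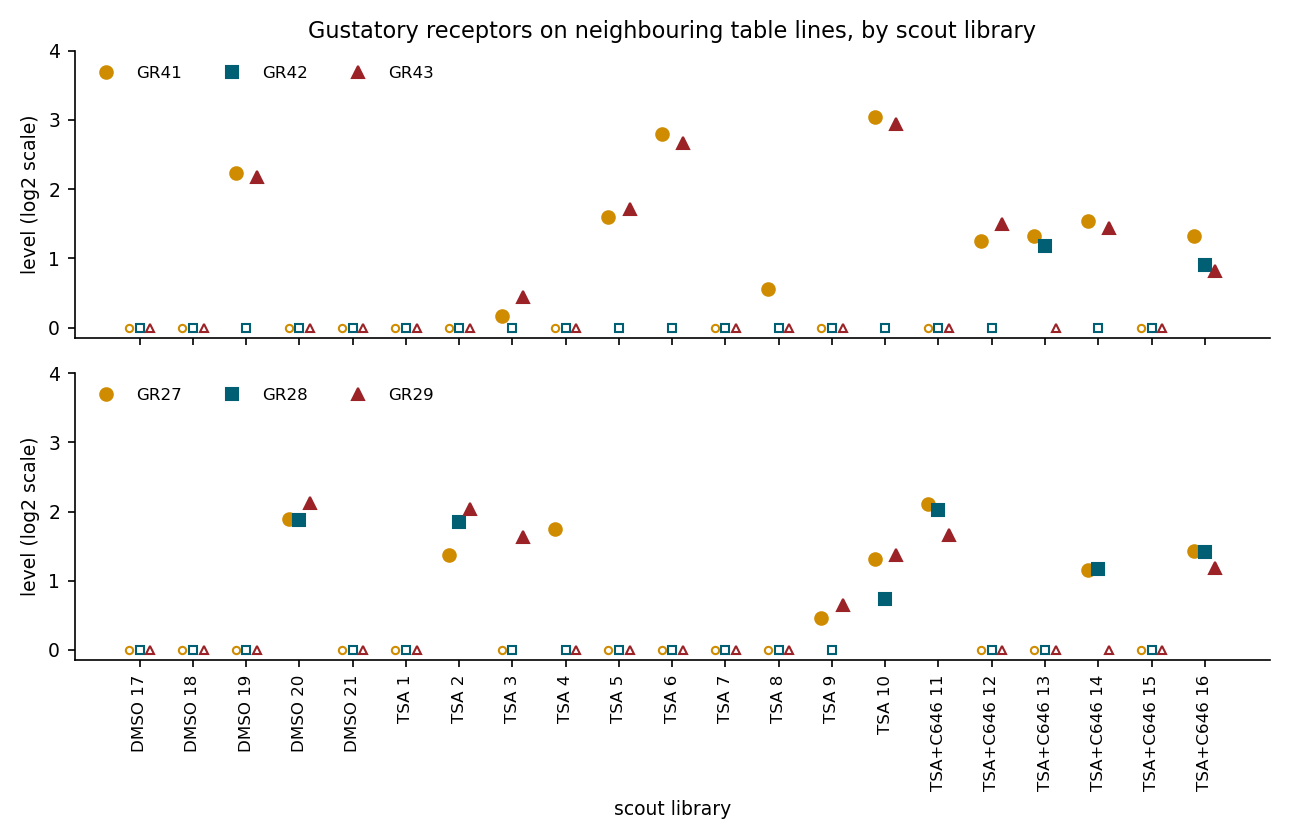
Level (log2 scale, library constant removed) of GR41, GR42 and GR43 (top) and of GR27, GR28 and GR29 (bottom) in each of the 21 scout libraries, with small open symbols at 0 for undetected receptors. GR41 and GR43 appear together in 8 libraries, and GR27 and GR28 in 6.

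A few members were seen in 50% or more of the brains of one arm and in none of another. GR8 was detected in 4 of 5 DMSO brains, at 0.68, 1.28, 0.74 and 0.39, in 4 of 10 TSA brains, at 0.32 to 1.34, and in 0 of 6 TSA+C646 brains. GR26 was found in 3 of 6 TSA+C646 brains, at 0.80, 3.68 and 0.03, and in none of the other 15. Its highest value came from TSA+C646 15. IR75f.1 was found in 3 of 6 TSA+C646 and 3 of 10 TSA brains, at up to 0.94 and 0.25, and in no DMSO brain. The lowest level detected ran from 0.17 to 0.34 among the DMSO libraries. Some of the IR75f.1 values under TSA and TSA+C646 lay below that and could not have been seen there. These members were picked for their pattern and their levels are a description. How many of all identifiers show such a pattern was not counted, so it is not a trait of these receptors.

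With no floor and undetected values at 0, a setting chosen after seeing the data, GR8 had the smallest unadjusted p of the members between TSA+C646 and DMSO, 0.0123 (limma, adjusted p = 0.917). GR8 was picked above for its pattern in the same values, so that p is no separate support for it. In that comparison 5 of 71 members had an unadjusted p under 0.05, beside 4.06% of the 15419 identifiers. Between TSA and DMSO 2 of 71 had one, beside 3.69%, and between TSA+C646 and TSA 3 of 71, beside 4.33%. With no floor and the values as deposited, 0, 2 and 1 of 89 members had one in the comparisons of TSA with DMSO, TSA+C646 with DMSO and TSA+C646 with TSA, beside 2.42%, 2.33% and 2.02% of 18130 identifiers. In the setting with undetected values at 0 the members' share was 7.04% between TSA+C646 and DMSO and 2.82% between TSA and DMSO. Between TSA+C646 and TSA it was 4.23%, each beside the share of all identifiers given above. No identifier passed the adjustment in these settings.

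High single values were frequent in TSA+C646 15. GR33 stood at 4.76 there, GR60 at 4.11, IR316 at 3.64, GR30 at 2.90 and IR317.3 at 2.83. These 5 receptors and GR26 were all of its detected members. The lowest level of any identifier detected in this library was 1.63, beside at most 0.40 in the other 20 scouts. The next highest values came from different brains, GR33 at 1.17 in TSA 5, GR60 at 1.30 in TSA+C646 12 and IR316 at 1.06 in TSA 1.

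On day 1 fewer members were detected, and at low levels. There 24 of 63 GR and 14 of 26 IR were detected in at least 1 of 10 libraries, or 38.1% and 53.8%, beside 76.3% of all identifiers. Without majors 1, 2 and 3 the counts were 19 GR and 12 IR. Among all pairs of receptor and library 7.62% of GR and 14.6% of IR values were detected, beside 10.5% for odorant receptors and 52.2% for all identifiers. The share was again higher in IR than in GR. Where detected, the median level was 0.0792 for GR and 0.0477 for IR, beside 0.707 for all identifiers. In scouts these medians were 0.814, 0.520 and 1.07. Such medians depend on how low each library detects. The lowest detected level was 0.0057 to 0.034 in the minors, but 0.17 to 0.34 in the DMSO scouts. The medians of the 2 tables are thus not like for like and do not show lower expression on day 1.

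The members detected in 10 or more scouts were mostly rare or absent on day 1. They were picked for wide detection in scouts, and the same share was not counted over all identifiers. GR48 was detected in 2 of 10 day 1 brains, at 0.012 or lower, and IR311, GR52, IR307 and GR41 in none. IR317.1 was in major 2 alone, at 0.69, and IR317.3 in minor 1 and majors 2 and 3, at 0.04 to 0.86. GR43, found in fewer scouts, was in no day 1 brain. GR8, also found in fewer scouts, was the most widely detected on day 1, in all 5 minors and 3 of 5 majors. Its level was 0.48, 0.18, 0.17, 0.21 and 0.36 in minors and 0, 0, 1.87, 0.10 and 0.32 in majors. The castes overlapped, with the highest value in major 3. That brain was the only one of day 1 with Orco detected (2.2), and it also held the highest GR10 (0.81).

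GR1 was detected in all 5 minors, at 0.06 to 0.24, and in major 4 at 0.37. IR75f.1 was detected in all 5 minors, at 0.007 to 0.094, and in major 5 at 0.042. IR314 was found in 4 minors and 2 majors, and IR313 in 4 minors and 1 major, at up to 0.111 and 0.0963. GR2, at up to 0.07, and IR75f.3, at up to 0.08, were found in 3 and 4 minors and in no major. Majors 1, 2 and 3 detected far fewer identifiers, and their lowest detected levels were 0.55, 0.41 and 0.38, above every minor's value of GR1, GR2 and the IR named here. The minors' levels of these receptors thus lay below what those 3 libraries resolved.

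IR317 receptors were found mainly in 2 of the majors with few identifiers. Major 2 held 5 of the 7, at 0.69 for IR317.1, 0.41 for IR317.2, 0.86 for IR317.3, 0.59 for IR317.6 and 0.46 for IR317.7, and no other IR. Major 3 held IR317.2 at 0.78 and IR317.3 at 0.38, and no other IR. IR317.2 in major 2 and IR317.3 in major 3 lay at about the lowest level detected in those libraries. Of the IR317 receptors, major 4 held IR317.7 alone, at 0.069, and major 5 IR317.4 alone, at 0.003. Among minors, IR317.3 was detected in minor 1 and IR317.2 in minor 4, at 0.042 and 0.008. GR25 was detected in major 1 alone, at 1.99.

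**Figure D5:**
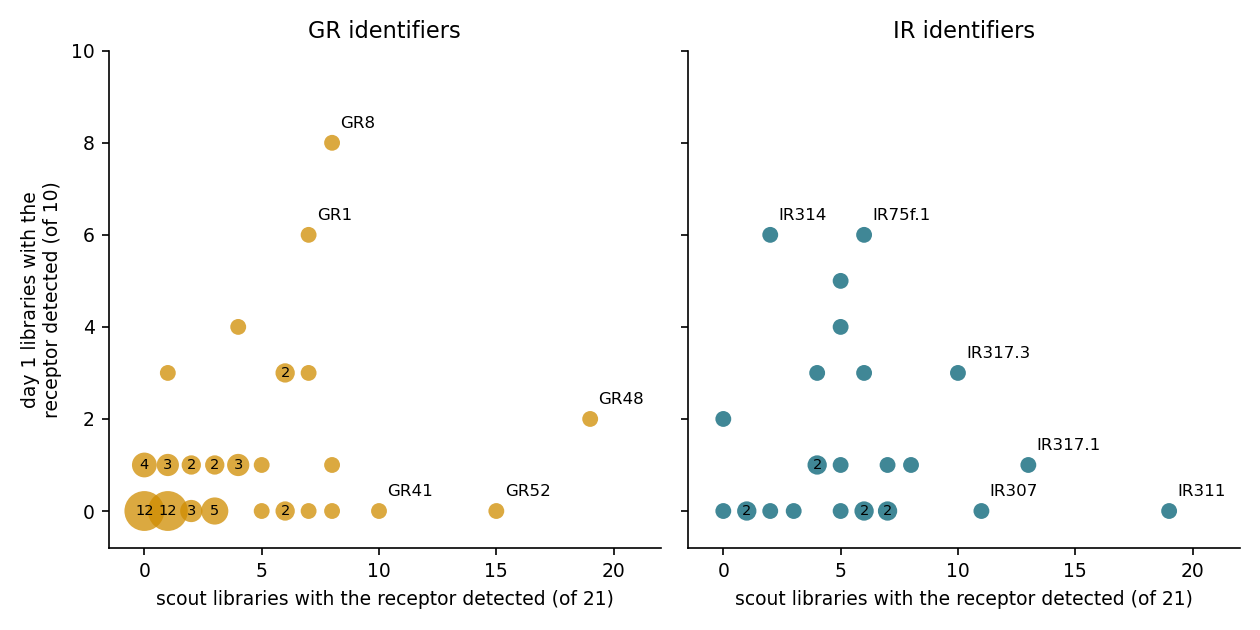
Number of scout libraries (of 21) and of day 1 libraries (of 10) in which each GR (left) and IR (right) was detected, with larger points and a printed count where several share a position. GR48 and IR311 lie far right and low, and GR8 lies highest.

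GR detected per library numbered 5.8 ± 2.68 in minors (SD, n = 5) and 3.8 ± 2.49 in majors (n = 5). IR numbered 4.2 ± 1.10 and 3.4 ± 3.13. Majors ranged from 2 GR and 0 IR in major 1 to 8 GR and 8 IR in major 5, around the minors' 3 to 10 GR and 3 to 5 IR. Majors 4 and 5 detected 10216 and 11768 identifiers, beside the minors' 10462 to 11259. Major 4 had 2 GR and 2 IR, below every minor, and major 5 had 8 GR and 8 IR. Their means of 5 GR and 5 IR (n = 2) thus lie between 2 unlike brains.

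No member reached the floor for testing on day 1, which 3694 of 18130 identifiers (20.4%) passed, and none can be called between the castes. Of those 3694, 2 (0.0541%) passed an adjusted p of 0.05 (limma). Without the floor, 34 of 89 members (19 GR and 15 IR) had an unadjusted p under 0.05, and all were higher in majors, but none passed the adjustment (limma, smallest adjusted p = 0.154). This share of 38.2% stands beside 18.4% of all identifiers at that p in either direction, and 13.5% that were higher in majors. Yet 19 of the 34 were detected in no day 1 library. IR307, one of them, had deposited values of 0.33, 0.28, 0.23, 0.02 and 0.03 in majors and of at most 0.01 in minors. These are values of the tie, spread in line order, and they were higher in the majors that detected few identifiers. With undetected values at 0, 1 of 38 members had an unadjusted p under 0.05, IR75f.3, which was lower in majors (limma, adjusted p = 0.388), beside 11.5% of 13841 identifiers in either direction and 9.17% lower.

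Across both tables, 20 GR and 13 IR were detected in scouts and on day 1, 27 GR and 11 IR in scouts alone, and 4 GR and 1 IR on day 1 alone. Over all identifiers, 72.7% were detected in both tables, 12.3% in scouts alone and 3.61% on day 1 alone, beside 31.7%, 42.9% and 6.35% of GR and 50%, 42.3% and 3.85% of IR. The members on day 1 alone were GR6, GR20, GR23, GR38 and IR317.7, each in 1 library except IR317.7, which was in 2. In neither table were 12 GR and 1 IR detected, the IR being IR309. The part of the smaller number of day 1 libraries in this difference was not tested. The 33 shared members make 46.5% of those seen in scouts and 86.8% of those seen on day 1, beside 85.5% and 95.3% for all identifiers.

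Detections in some stretches of near lines are set beside those of the whole families in scouts. These were 186 of 1323 possible for GR (14.1%) and 147 of 546 for IR (26.9%). GR22, GR23, GR24, GR44 and GR45 stand near each other, and they gave 1 detection of 105 possible in scouts. The 11 receptors from GR49 to GR59 gave 24 of 231, of which GR52 held 15. The 8 receptors from GR14 to GR21 gave 9 of 168. GR27, GR28 and GR29 gave 21 of 63, and GR41, GR42 and GR43 gave 20 of 63. IR75f.1, IR75f.2 and IR75f.3 together gave 17 of 63, IR75u.1, IR75u.2 and IR75u.3 13 of 63, and IR317.4 to IR317.7 18 of 84. Whether these stretches differ more than stretches of other identifiers was not tested.

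The 5 ionotropic receptors left out of the members, IR68a among them, were detected in 65.7% of possible cases in scouts and in 62% on day 1, shares above those of the divergent members. IR25a, IR8a and IR93a were each detected in 17 of 21 scouts, IR76b in 11 and IR68a in 7. On day 1, IR25a was detected in 10 of 10 brains, at 1.204 to 1.65 in minors and 0.76 to 1.58 in majors, and IR8a and IR93a in 9. IR25a was the only one above the floor on day 1, with a difference of -0.19 (SE 0.19) between majors and minors (limma, adjusted p = 0.637). IR311 was the one divergent ionotropic receptor found in more scouts than IR25a, and on day 1 it was found in none.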

How the data were processed

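The submitters' processing notes name bcl2fastq 2.0, Cufflinks 2.2.1 and Bowtie2. Build, annotation and settings were not given in the sources used here. The tables deposited by the authors hold log2 values with no counts, so depth is unknown. Within a table every library followed 1 shared distribution plus 1 constant, floored at 0, to within 1.00002e-10. The constants spanned -0.330 to 0.907 among scouts and -0.0150 to 0.0288 for day 1. No label records how this was made. Tied identifiers rise in line order, which made them recoverable (tested on simulated data), and some ties may be failed estimates.

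Tests ran on the deposited log2 values in limma 3.58.1 (R 4.3.3), with a variance trend and Benjamini-Hochberg adjustment over all identifiers of a mean deposited value of at least 1. Scouts shared 1 fit of 21 libraries, day 1 had its own of 10, and no test crosses tables. The design assumed linear values, and pseudocounts of 0.1 and 5 were tried on back-transformed ones. Python 3.11.15 with pandas 2.3.3, numpy 2.4.6 and matplotlib 3.10.9 did the rest. No library copied another (largest r 0.808 in scouts and 0.878 on day 1).

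Named were the 8 members of each family and table with the largest mean value, the members with the smallest p among those tested, and those in 50% or more of one group and none of another. Where other members are named, they were chosen after their values were seen. Members and lists were chosen with earlier results of these data known. Of 64 samples, 31 were used. The 6 subsample libraries hold 0 of the members, and immunoprecipitation samples were not analysed here. No member matched the 14020 genes of the reference table, so no sequence is shown.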

Additional observations from a re-analysis of the deposited data

Results flagged for a closer look

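Of 85 groups of 5 to 10 values checked, 39 had 1 library far from the others. In 23 of the 39 no other library of the group detected the receptor, so that a single detection was enough. The rate of about 1 in 20 expected by chance holds for normally distributed values. It does not apply to groups with many undetected receptors, so the 39 cannot be set against it.

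In DMSO, the brain DMSO 19 was high for GR41 (2.24), GR43 (2.18) and GR33 (0.778), and DMSO 20 for GR27 (1.90), GR28 (1.88) and GR29 (2.13). DMSO 18 was high for IR317.1 (1.26) and IR317.6 (0.948), DMSO 21 for IR317.3 (1.13) and IR316 (1.00), and DMSO 17 for IR75u.2 (1.17). GR52 was undetected (0) in DMSO 21 alone. The gustatory triplet and pair thus each came from 1 brain.

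In TSA, GR52 was high in TSA 8 (2.65), GR28 in TSA 2 (1.85), GR33 in TSA 5 (1.17) and GR8 in TSA 4 (1.34). IR75u.2 was high in TSA 4 (0.864), IR316 in TSA 1 (1.06) and IR75f.1 in TSA 2 (0.254). TSA 10 detected the most GR, 23. In TSA+C646, the library TSA+C646 15 stood apart for GR33 (4.76), GR26 (3.68), IR316 (3.64) and IR317.3 (2.83), and it detected the fewest identifiers of all scouts.

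On day 1, minor 1 was high for GR13 (0.0308), GR12 (0.0283) and IR317.3 (0.0416), and minor 4 for IR317.2 (0.00751). Major 1 was high for GR25 (1.99) and GR61 (0.978), major 3 for GR8 (1.87) and GR10 (0.814). Major 2 was high for GR17 (0.437), IR317.1 (0.691), IR317.6 (0.586) and IR317.7 (0.456). In major 5, GR20 (0.000602), IR317.4 (0.00260) and IR312 (0.00197) were the sole detections of their group, at levels near 0.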

How the results depend on the processing

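The identifiers called between TSA and DMSO numbered 0, but 1 with array weights and 1 in colony SB2 alone, and 0 to 1 with single libraries left out (1 without TSA+C646 15). Between majors and minors 2 were called, 0 with the replicate number as a block, and 2 to 37 with single libraries left out (4 without minor 5, 4 without major 4, 37 without major 5). The replicate numbers gave little sign of pairs among the day 1 brains (1 of 5 pairs correlated over 0.1, and 2 of 10 brains correlated best with their own number). Whether brains of the same number share a batch was not tested. The other 2 scout counts stayed at 0 throughout. The cause of these moves was not tested.

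With detection set at a deposited value of at least 2, GR per library numbered 2.2 under DMSO, 1.6 under TSA and 2.83 under TSA+C646, and 0 in minors and 0 in majors. IR numbered 0.4, 0.3 and 1.17, and 0 in both castes. With the constant removed first, a setting chosen after seeing the data, GR numbered 2.2, 1.5 and 1.83 and IR 0.4, 0.3 and 1 in the 3 arms, and 0 on day 1, so for GR the DMSO arm and not TSA+C646 was then highest. With single libraries left out, GR ranged over 6.5 to 9, 7.44 to 9.67, 7.6 to 10.6, 4.75 to 6.5 and 2.75 to 4.25 from DMSO to majors, and IR over 4.5 to 6.25, 7.22 to 8.56, 5 to 7.4, 4 to 4.5 and 2.25 to 4.25.

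No difference of GR48 or IR311 passed the test in any setting. The sign of GR48 turned between TSA and DMSO with a pseudocount of 5 (0.048), array weights (0.15) and without TSA 9 and 10 and TSA+C646 15 and 16 (0.46), and with single libraries left out it ran from -0.33 to 0.26. Between TSA+C646 and DMSO it turned with array weights (0.22), without those 4 (0.44) and at 50 µM C646 (0.15), running from -0.70 to 0.13. Between TSA+C646 and TSA it turned with array weights (0.066) and at 50 µM (0.21), running from -0.64 to 0.20. For IR311 between TSA+C646 and DMSO the values were 0.17, 0.25 and 0.12, running from -0.23 to 0.15. IR311 kept its sign in the other comparisons.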
